A study of Homo sapiens with 6 samples.

Results

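The region described here is a stretch of human chromosome 12 that holds MSRB3, HMGA2 and the interval between them, at 65600000 to 66450000 in the build hg19. It was chosen by the H3K27ac peak lists themselves, because it holds the longest run of M2 peaks without a THP-1 peak, so the contrast between the lists inside it is given as a description and not as a test. Every peak that overlaps these bounds was taken. The M2 list had 37 of them and the THP-1 list 3, together 40 of the 87864 peaks of both lists. The nearest peaks left out lie 35.6 kb (M2, 6.75-fold) and 17.1 kb (THP-1, 6.23-fold) before the left bound, and 15.0 kb (M2, 5.13-fold) and 14.8 kb (THP-1, 2.96-fold) beyond the right bound.

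The series set M2 macrophages, phagocytes in their alternatively activated form, beside THP-1, a human monocytic leukaemia line, both kept in RPMI medium with fetal bovine serum. The starting cells and the polarising agents of the M2 cells are not given in the sources used here, and the labels name M2 in the field for the cell line. Each cell type had 1 chromatin immunoprecipitation library for H3K27ac, 1 for the transcription factor YY1 and 1 of input DNA, 6 libraries in all, and the values here come from the H3K27ac peak list of each cell type. A single library stands for each cell type, so nothing measures the spread between libraries and no p-value is given between the cell types. Neither list was checked against cell type markers, since peaks were not placed at other genes.

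HMGA2 encodes an architectural chromatin protein that binds AT-rich DNA through AT-hook motifs. It is abundant in embryonic and mesenchymal cells, is low in most adult tissues, is a classic target of the let-7 microRNAs, and is rearranged or overexpressed in several mesenchymal tumours. MSRB3 encodes a methionine sulfoxide reductase, an enzyme that repairs oxidised methionine in proteins, and its loss causes hereditary deafness. Acetylation of lysine 27 on histone H3 is found at promoters and enhancers in use, and dense groups of such peaks often lie far from the gene they act on. The peaks were not tied to a target gene here.

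In the RefSeq gene order of GRCh38.p14, which was used for names and order only, no protein-coding gene lies between MSRB3 and HMGA2. The interval there holds or touches 8 entries, 6 long non-coding RNAs (MSRB3-AS1 and LINC02454 among them) and 2 pseudogenes. The pseudogene RPSAP52 overlaps HMGA2, so a peak at the start of HMGA2 cannot be assigned to HMGA2 alone. HMGA2-AS1 and HMGA2-AS2 also overlap HMGA2. WIF1 and LEMD3 precede MSRB3, and LLPH, TMBIM4, IRAK3 and HELB follow HMGA2.

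MSRB3 carried no H3K27ac peak in either list, although its annotated start is rich in CG dinucleotides. Peaks were looked for over the hg19 bounds of MSRB3. The RefSeq promoter of the first MSRB3 start is shown for its CG content only and was not placed in hg19. It spans 300 bases around the start, at chr12:65278433-65278732 of GRCh38.p14 on the + strand (these coordinates are not those of the peak lists, which are in hg19), and capitals mark each CG.
MSRB3 promoter: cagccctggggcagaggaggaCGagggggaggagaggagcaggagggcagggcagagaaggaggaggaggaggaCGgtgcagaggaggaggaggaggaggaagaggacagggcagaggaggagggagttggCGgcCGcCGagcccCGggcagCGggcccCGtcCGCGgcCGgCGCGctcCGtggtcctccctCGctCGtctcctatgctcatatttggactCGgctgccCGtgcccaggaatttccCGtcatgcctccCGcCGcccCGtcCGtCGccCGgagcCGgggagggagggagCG
It holds 27 CG dinucleotides and 72.0% G or C, against a median of 14 CG over 35116 RefSeq promoters of the same length, of which 28.2% hold 27 or more. The sequence CG reads the same on both strands, so each was counted once. A second MSRB3 start in the same table, whose window overlaps this one, also has 27 CG. HMGA2 has 0 entries in that table. The M2 peaks nearest to the MSRB3 start lay 105.6 kb before and 260.1 kb after it, and the THP-1 peaks nearest to it 11.8 kb before and 648.3 kb after it, with that start known to about 10 kb. Of 15474 adjoining windows of 190 kb, the length of MSRB3, 32.5% held no peak in either list. Those windows ran from the first to the last peak of each chromosome, with centromeres and assembly gaps, and were not limited to genes. The stretch without a peak in either list around the MSRB3 start was 271.9 kb long, 1760th in length among 63158 such stretches.

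The M2 peaks were not spread over the region. Of the 37, 31 fell in the 310 kb upstream of HMGA2 (65900000 to 66210000) and 6 in HMGA2 (66218000 to 66360000). None fell in MSRB3 (about 65670000 to 65860000), in the 70 kb before it or in the 90 kb beyond HMGA2. M2 peaks covered 47.57 kb, or 15.3%, of the upstream stretch and 4.58 kb, or 3.23%, of HMGA2. Of the 3 THP-1 peaks, 2 lay before MSRB3 and 1 in HMGA2. THP-1 peaks covered 0 bp of the upstream stretch and 1.98 kb, or 1.4%, of HMGA2. The whole region held 52.16 kb of M2 and 3.62 kb of THP-1 peak sequence.

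**Figure D1:**
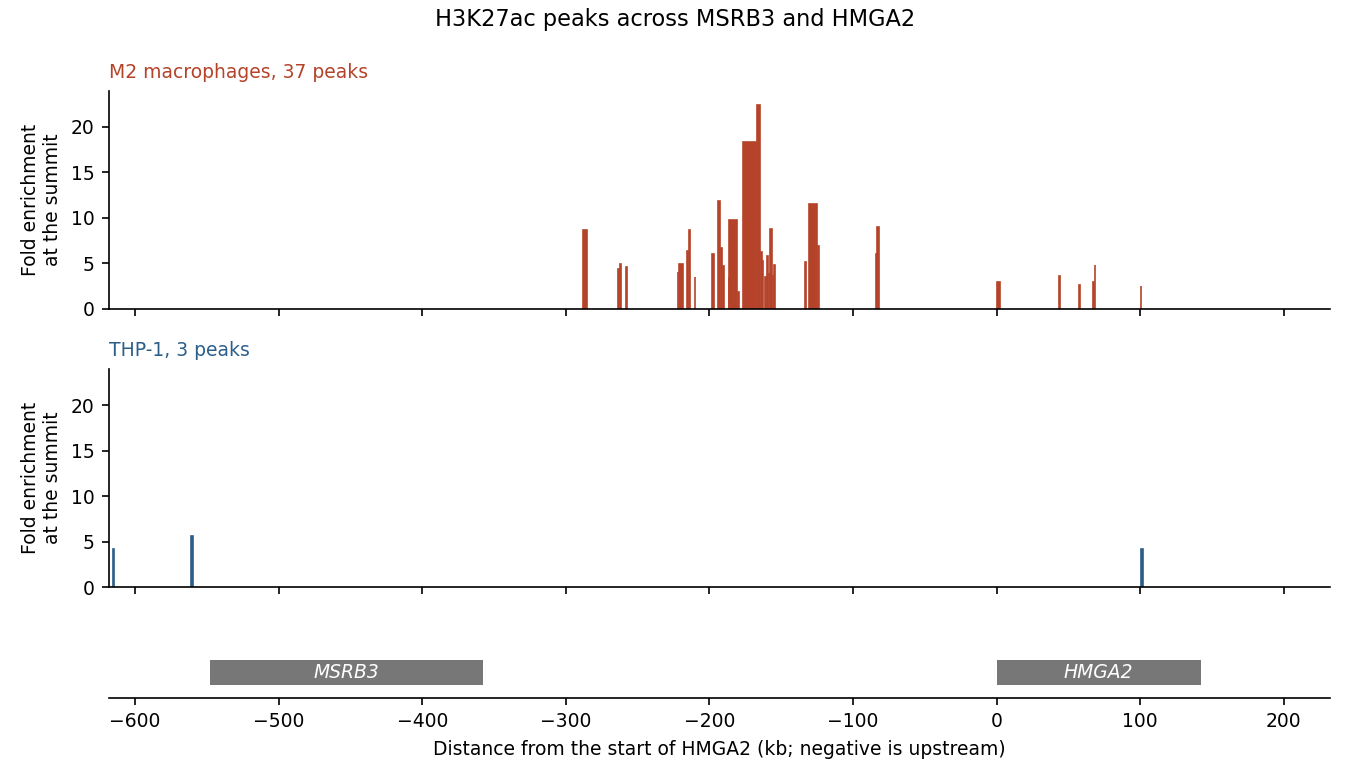
Peaks of M2 macrophages (upper panel, 37 peaks) and THP-1 cells (middle panel, 3 peaks) by distance from the start of HMGA2 in kb, with bar width the peak width and bar height the authors' fold enrichment at the summit. The M2 peaks begin 287.9 kb before HMGA2 and the THP-1 panel is empty over that stretch, while neither panel has a peak over MSRB3.

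Of the 37 M2 peaks, 36 overlapped no THP-1 peak by at least 1 bp, which is 97.3% (exact 95% binomial interval 85.8 to 99.93, counting error only). Across the whole M2 list 63.0% of 56420 peaks overlapped none, and on chromosome 12 it was 67.3% (65.5 to 69.0) of 2694. Since the region was picked on this contrast, its share says nothing beyond how it was picked. Of the 3 THP-1 peaks, 2 overlapped no M2 peak, beside 24.7% of the 31444 peaks in the whole THP-1 list.

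The neighbouring windows of the same length, 850 kb each, had shares closer to the list. On the left, 12 of 21 M2 peaks (57.1%) overlapped no THP-1 peak, and on the right 14 of 25 (56%). Those windows held 13 and 18 THP-1 peaks, and THP-1 peaks covered 9.01 kb on the left and 21.8 kb on the right. THP-1 peaks were therefore more numerous on both sides than inside the region, which was chosen for its run of M2 peaks without them.

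The 36 M2-only peaks follow one another without a THP-1 peak between them, from 65930056 to 66286821, a span of 356.8 kb that starts 287.9 kb before HMGA2 and ends 68.8 kb inside it. A run was defined as consecutive M2 peaks with no THP-1 peak overlapping or lying between them. The M2 list held 12222 such runs, 39.2% of them with a single peak, and the median run had 2 peaks. Only 29 runs had 20 or more peaks and 3 had 30 or more. The run at HMGA2 ranked first by number of peaks and first by covered length, 51.8 kb, but 593rd of the 12222 by span. Its 356.8 kb was near the median span of the 29 runs with 20 or more peaks, 372.8 kb. Longer spans belonged to runs with fewer peaks. The first place by number depended on how peaks were kept. It was the 53rd with peaks at a -log10 q of at least 10 in both lists, the 25th with only THP-1 peaks held to that threshold and the 3rd after merging peaks within 1000 bp, while by covered length the run was 11th, 8th and first in these settings.

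The next runs by number of peaks covered less sequence in total. On chromosome 2 at 238036467 to 238422091, 34 M2 peaks covered 34.8 kb, 9.02% of the span, against 14.5% at HMGA2. The run on chromosome 4 at 74641364 to 75024987 had 32 peaks and 31.9 kb. On chromosome 11 at 78285358 to 78958371, 28 peaks covered 30.8 kb of a span of 673.0 kb. On chromosome 8 at 139394473 to 139666985 there were 24 peaks with 18.6 kb. The next place was shared by 5 runs of 23 peaks, which covered 15.8 to 27 kb. The one with most covered length, on chromosome 13 at 44716454 to 44990640, had 9.83% of its span covered. Another of them, on chromosome 20 at 49880179 to 50017546, covered 23.5 kb, which is 17.1% of its span of 137.4 kb and a larger share than at HMGA2. Of these 9 other runs, the one on chromosome 20 held 1 peak wider than 5000 bp and the rest held none, and the run at HMGA2 held 3.

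In the THP-1 list, the run lies in a gap of 660.1 kb inside the region, between the THP-1 peaks that end at 65658176 and start at 66318298. This gap ranked 816th in length among 31421 gaps, whose median was 16.8 kb, and 2.6% of them were at least as long. The 1647 other gaps of 330.1 to 1320.2 kb, from 0.5 to 2 times its length, held a median of 3 M2 peaks, an upper quartile of 6 and at most 34, and 16.5% held none. The gap at HMGA2 held 36, the same peaks as the run for which the region was chosen. Its high count therefore follows from that choice and is no separate evidence. All 36 lie beyond the first 271.9 kb of the gap, which take in MSRB3 and had no peak in either list.

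**Figure D2:**
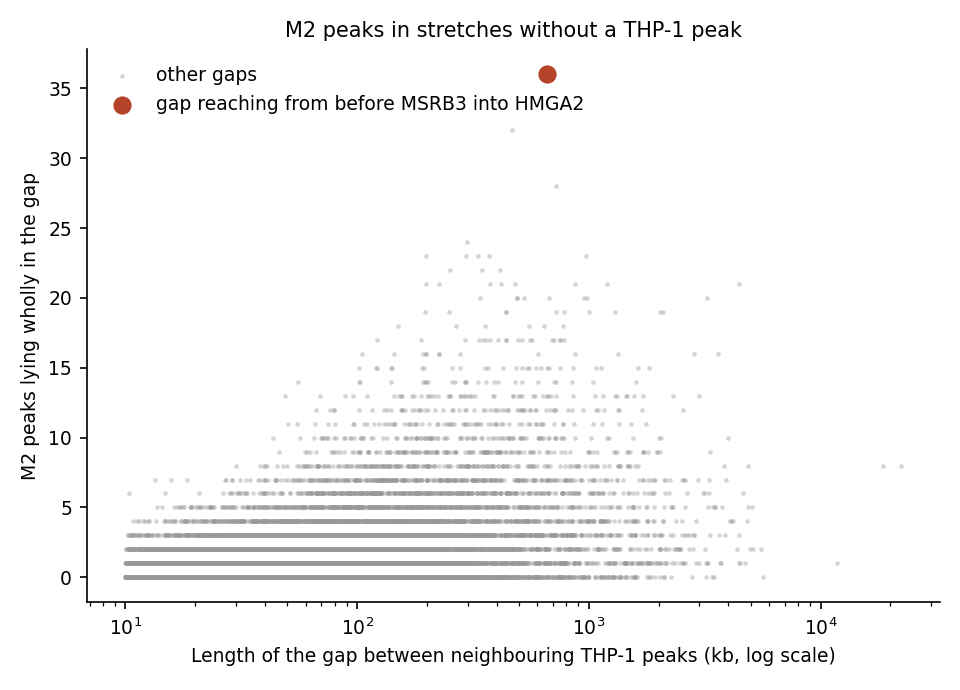
Number of M2 peaks lying wholly inside each gap between neighbouring THP-1 peaks, by gap length in kb on a log scale, for gaps of at least 10 kb. The gap at HMGA2 (large point, 660.1 kb) holds 36 M2 peaks, and the next holds 34. The region was chosen for this run of 36, so its place at the top follows from the choice.

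The M2 peaks upstream of HMGA2 form separate groups. Joining peaks within 10000 bp gave 10 clusters in the region, 6 of them upstream. The largest, by number of peaks and by covered length, lay at 66019770 to 66063376, from 198.2 to 154.6 kb before HMGA2, and held 17 peaks over 29.2 kb, which is 67% of its 43.6 kb and 56.4% of the covered length of the run. Among 27983 such clusters of the M2 list it ranked 26th by covered length, and among the 14171 that touch no THP-1 peak it ranked first. It also ranked first of the clusters touching no THP-1 peak with a joining distance of 5000 bp, where it was the same cluster. The same held at 20000 bp, where it had 22 peaks. Among all clusters it ranked 11th and 44th with these distances. The region was chosen for its M2 peaks without THP-1 peaks, so the first place is not independent of that choice.

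The other upstream clusters were smaller. The most distant was a single peak of 2630 bp at 65930056 to 65932685 (8.67-fold, 40 fragments). Then came 3 weak peaks at 65954415 to 65960509, with folds of 4.35, 4.93 and 4.64. A cluster of 5 peaks at 65995964 to 66008239 covered 5.3 kb. On the HMGA2 side of the largest cluster, 3 peaks at 66084915 to 66094064 covered 6.9 kb and 2 peaks at 66134147 to 66136299 covered 2.0 kb. Between the last of these and HMGA2 there was an empty stretch of 82.0 kb, the widest within the run, while the median distance between neighbours in the run was 849 bp.

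The strongest H3K27ac of the region lay within the largest cluster. The peak of highest fold enrichment, at 66050940 to 66053517, reached 22.36-fold with a -log10 q of 174.40 and 213 fragments over its summit. It ranked 116th of 56420 M2 peaks by -log10 q and 22nd of the 35520 that overlap no THP-1 peak. The next, at 66041234 to 66050733, reached 18.34-fold with 141 fragments, and its 9500 bp made it the 4th widest M2 peak without THP-1 overlap. The summits of these 2 peaks were 1089 bp apart, across a break of 206 bp between the peaks, because the summit of the wider one lies 9071 bp into it. They lie 167.7 and 166.6 kb before HMGA2. Fold enrichment here is the value the peak caller deposited for each summit over its own local background, and fragments were recovered from fold and p-value as set out in the methods.

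The others among the 5 of highest fold were at 66023999 to 66025493 (11.89-fold, 126 fragments), at 66087263 to 66093127 (11.53-fold, 84 fragments) and at 66031848 to 66037217 (9.73-fold, 126 fragments). The peaks of 11.53-fold and 9.73-fold were also wide, at 5865 and 5370 bp. The 5 widest also take in the most distant peak, of 2630 bp, and one of 2802 bp at 65996595 to 65999396, which was 4.99-fold with 94 fragments. Thus 3 of 36 run peaks (8.33%) were wider than 5000 bp, against 0.197% of all M2-only peaks and 0.833% of all M2 peaks.

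**Figure D3:**
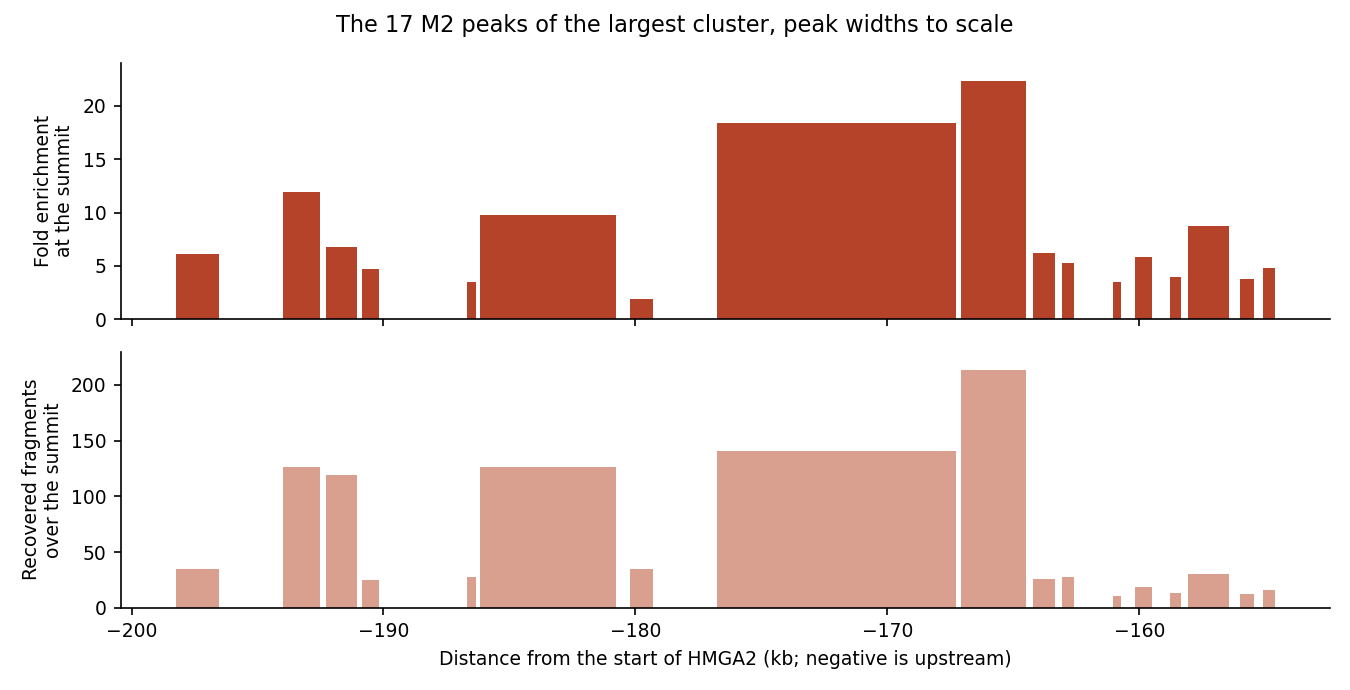
The 17 M2 peaks of the largest cluster by distance from the start of HMGA2 in kb, drawn to their width, with fold enrichment (upper panel) and recovered fragments over the summit (lower panel) as bar heights. The adjoining pair of 18.34-fold and 22.36-fold stands above the other peaks in both panels.

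Most peaks of the run were ordinary in strength. Their median fold enrichment was 5.05, against 5.00 over all M2-only peaks and 5.42 over the M2 list. The median width was 672 bp, against 591 bp over M2-only peaks, and the median -log10 q 10.6, against 10.2. Fragments over the summit ran from 11 to 213 with a median of 34.5, beside 31 for M2-only peaks. The weakest peak, at 66037793 to 66038683 within the largest cluster, was 1.9-fold with a -log10 q of 1.65, although 35 fragments lay over its summit.

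HMGA2 itself had 6 M2 peaks. The one nearest to its start, at 66218255 to 66220366, begins about 0.3 kb inside the gene and is 2112 bp wide. Its fold enrichment was 2.95, its -log10 q 17.94 and its fragments 118. In the THP-1 list no peak lay at that start, and the nearest were 559.8 kb before it and 100.3 kb after it. The gene boundary is known here only to the nearest 1 kb, so the offset from the start is approximate.

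Farther into HMGA2, the peak at 66261600 to 66262115 was 3.59-fold with 84 fragments and the peak at 66275394 to 66275940 was 2.65-fold with 65 fragments. A pair at 66285467 to 66285898 and 66286190 to 66286821 had 3-fold with 70 fragments and 4.83-fold with 82 fragments. These 4 were narrow, from 432 to 632 bp. No THP-1 peak overlapped any of them.

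The only site of the region called in both lists lay 100.5 kb into HMGA2. The M2 peak at 66318483 to 66318825 was 343 bp wide and 2.53-fold, with a -log10 q of 4.07 and 36 fragments. The THP-1 peak at 66318298 to 66320280 was 1983 bp wide and 4.14-fold, with a -log10 q of 6.16 and 20 fragments. Here the THP-1 peak was the wider and contained the M2 peak. Each value is relative to the background of its own list, so the folds do not measure a change. The other THP-1 peaks, at 65602805 to 65603540 and 65657277 to 65658176 before MSRB3, had 4.20-fold and 5.57-fold with 15 fragments each, so all 3 were below the list median of 39 fragments.

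Fold enrichment and fragments ranked the peaks of HMGA2 differently. The peak at the HMGA2 start stood at the 87.2 percentile of the M2 list by fragments and at the 5.4 percentile by fold. Its recovered background was 17 times the lowest of the list, at the 97.6 percentile. Upstream peaks with nearly the same signal had much higher fold, 6.74 at 66025729 to 66026961 (119 fragments, background 7.23 times the lowest) and 11.89 at 66023999 to 66025493 (126 fragments, 4.13 times). Among the 4589 M2 peaks with 100 to 140 fragments the median background was 6.71 times the lowest and the median fold 7.13, and 3.8% had a background as high as the HMGA2 start.

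The same held across the gene. All 6 HMGA2 peaks had a background of 5.86 to 17 times the lowest, above the upper quartile of the M2 list (4.87). The 31 upstream peaks had a median of 1.9 times the lowest, and 4 of them exceeded 5 times, up to 7.77. Median fragments were 76 in HMGA2 and 30 upstream, while median fold was 2.97 in HMGA2 and 5.79 upstream. By median fold the upstream peaks led, and by median fragments the HMGA2 peaks did. Background was solved from fold and p-value, so at like fragments a lower fold means a higher recovered background by construction. The background values are therefore no observation apart from fold and fragments. The sources used here do not say which library set the background, and why it was higher in HMGA2 was not tested.

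**Figure D4:**
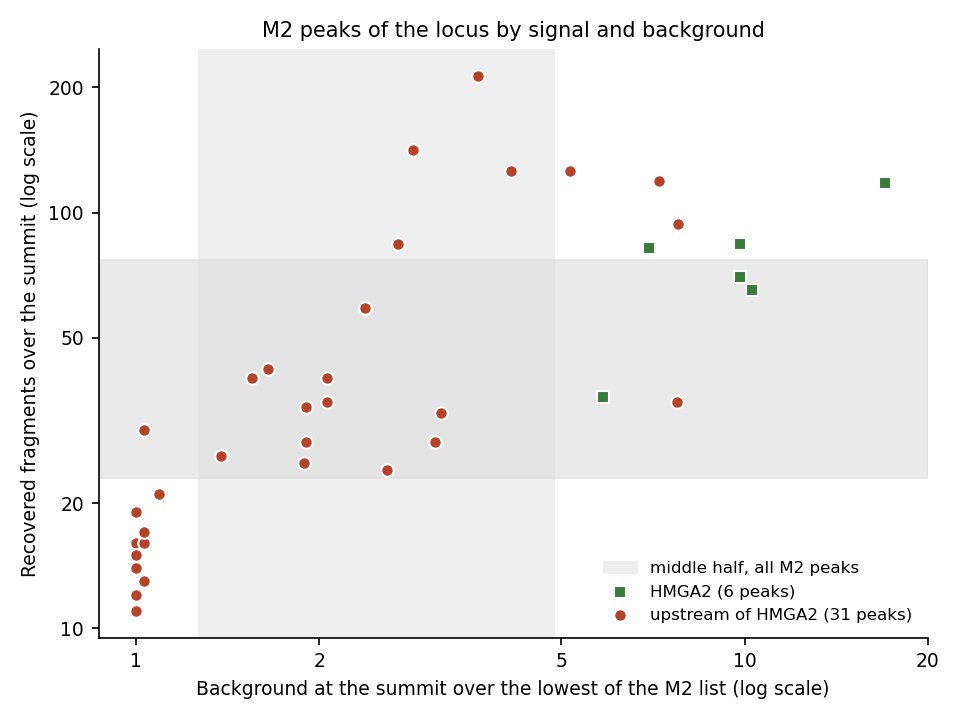
Recovered fragments over the summit against recovered background, as a multiple of the lowest of the M2 list, both on log scales, for the 6 M2 peaks in HMGA2 (squares) and the 31 upstream (circles), with grey bands for the interquartile ranges of all M2 peaks. The squares lie to the right, from 5.86 to 17, and the topmost circle is the peak with 213 fragments.

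What the empty THP-1 stretch can show depends on depth and on the THP-1 background assumed there. The lowest -log10 p in the THP-1 list was 3.31 and its smallest summit held 8 fragments. If each of the 36 run sites had carried in THP-1 cells the same fragments relative to the genome-wide background as in M2 cells, all 36 would have reached that p at the lowest THP-1 background, and 35 at the background found in M2 cells. At the median background of THP-1 peaks, 4.99 times the lowest, 23 would have. These counts take the M2 fragments as exact, without counting error, and the weakest run peak had only 11. The M2 sites were also kept because they had been called. Sites could therefore fall short of that p more often than these counts show. The THP-1 peaks of the region had backgrounds of 1.06, 1.59 and 2.31 times the lowest. Weaker acetylation than in M2 cells could lie at these sites uncalled, and the THP-1 background at sites without a peak is not known. Acetylation in fewer cells and less acetylation per cell cannot be told apart in such libraries.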

How the data were processed

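Per the submitters' processing notes, reads were handled with Bowtie2 and MACS2 version 2.1.0 on hg19. Neither the settings nor the control library are given there. The authors deposited a fold enrichment at each summit (a linear ratio over the local background) with its -log10 p and -log10 q. Their score column, derived from the q-value, was left aside. Input and YY1 were not analysed here, nor was chromosome Y.

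Peaks sharing at least 1 bp were counted as overlapping. Gene bounds are those of the definition of the region, in hg19. Runs, gaps and clusters were found in both whole lists. Fragments and background were solved for each peak from fold, taken as pileup plus 1 over background plus 1, and a Poisson p-value. With the M2 pileup scaled by 0.8417 and the THP-1 pileup not scaled, a whole number of fragments (within 0.02) fitted nearly every peak, and 98.3% of M2 and 96.7% of THP-1 peaks had a single solution. The median was 39 fragments in each list. The lowest background was 1.94 in M2, in units of the scaled pileup and not in fragments. In THP-1, where the pileup was not scaled, it was 1.77 fragments. These numbers are inferred. The steps were tested on simulated peaks.

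The members, the definitions and the tests were chosen with earlier results of these data known. Named regions are all THP-1 peaks of the region, the 5 M2 peaks of highest fold, the 5 widest, those nearest to the gene starts and the 5 other runs with most peaks (of the 5 tied for the last place, the one with most covered length). The chromosome 20 run, the remaining HMGA2 peaks and the upstream clusters were named after their values were seen. Promoter sequence is from RefSeq, GRCh38.p14. Python 3.11.15, numpy 2.4.6, pandas 2.3.3 and scipy 1.17.1 were used.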

Additional observations from a re-analysis of the deposited data

How the results depend on the processing

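M2 peaks covered more of the region than THP-1 peaks under the 3 settings that recomputed covered length, while the rank of the run changed. With peaks kept at a -log10 q of at least 10 in both lists there were 19 M2 and 0 THP-1 peaks in the region, covering 43.3 and 0 kb, 100% of the M2 peaks overlapped no THP-1 peak, and the run of 19 peaks ranked 53rd, where the longest run of the list had 45. It ranked 11th by covered length. In lists of equal length, 31444 peaks of highest -log10 q each, there were 17 M2 and 3 THP-1 peaks, the M2 peaks covered 42 kb, 100% overlapped no THP-1 peak, and the run of 17 was again the longest. That setting kept the whole THP-1 list, and so every end of a run, and cut only the M2 list, at a -log10 q of 11.33. Both shares of 100% follow from the cuts. The first left no THP-1 peak in the region, and the second removed the only shared M2 peak (-log10 q 4.07). Merging peaks within 1000 bp left 19 M2 peaks over 58.72 kb and a run of 18, which ranked 3rd by number (shared by 3 runs) and first by covered length. When only THP-1 peaks at a -log10 q of at least 10 ended a run, it held 38 peaks and ranked 25th. That run reached 66465365, beyond the right bound of the region, and the gap between THP-1 peaks was 882.7 kb. The limits on -log10 q remove THP-1 peaks, and with them the ends of runs elsewhere, by construction. With THP-1 peaks allowed between M2 peaks the run had 37 peaks and ranked first. It then started at 65563385, before the left bound, so these are not the 37 M2 peaks of the region. Sharing within 1000 bp, or with at least 50% of the M2 peak covered, left the M2-only share of the region at 97.3%. The share over the whole M2 list was not recomputed in any of these settings. In settings added after the data were seen, the median fold of the M2 peaks was 4.99 with all peaks and 6.93 at a -log10 q of at least 10, and the largest cluster held 17 peaks with joining within 5000 bp and 22 within 20000 bp. No paired analysis was possible because each cell type has 1 library.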
